A study of Mus musculus with 3 samples.

Results

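The cells described here were lymphocytes of the inflamed sciatic nerve that carried RNA of both a CD3 chain and a Ly49 receptor, and they are called Ly49+CD3+ cells. Members were chosen by measured UMIs. A cell was a member when it had at least 1 UMI (1 counted RNA molecule) of Cd3d, Cd3e or Cd3g and at least 2 UMIs of Klra1, Klra5 and Klra9 together. It also had to have no UMI of Cd8b1, Cd4, Ncr1, Cd79a, Mki67 or Top2a and at most 1 UMI of the C1q genes. The rule found 293 members among 13637 cells that passed the filters of at most 5000 genes and at most 20% mitochondrial UMIs. There were 109 members in library 1, 134 in library 2 and 50 in library 3.

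Single-cell RNA-seq was performed on CD45+ cells sorted from sciatic nerves after perfusion and digestion. All mice were neuropathic NOD.AireGW/+ animals, NOD mice with 1 mutant copy of Aire, the gene through which the thymus displays tissue antigens to developing T cells. Libraries 1 and 2 each came from 1 mouse and library 3 from 2 pooled mice. According to its methods the study worked with females, while the age of these animals was not given in the sources used here, and no control group was included, so all comparisons were between groups of cells of the same 3 libraries.

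Ly49 receptors, encoded by the Klra genes, are lectin-like proteins by which mouse NK cells sense MHC class I. Most of them inhibit the cell, while a few, such as Ly49D (Klra4) and Ly49H (Klra8), activate it through the adaptor DAP12, the product of Tyrobp. Subsets of T cells also carry them, among them activated CD8+ T cells, innate-like αβ T cells and γδ T cells. The rule used the genes of Ly49A (Klra1), Ly49E (Klra5) and Ly49I (Klra9).

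The Ly49 genes lie side by side on the minus strand of mouse chromosome 6 in build mm10, with Klra5 at chr6:129898996-129917650, Klra4 at chr6:130043731-130067271, Klra9 at chr6:130178675-130193112 and Klra1 at chr6:130363917-130386874. The opening of their coding sequences is shown because reads of similar genes may be counted to one another, which was not tested here. These are bases 1 to 60 of the coding sequence, with capitals where a base differs from Klra1.
Klra1: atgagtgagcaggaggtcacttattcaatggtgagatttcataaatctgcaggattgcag
Klra5: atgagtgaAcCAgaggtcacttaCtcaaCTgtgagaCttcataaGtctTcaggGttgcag
Klra9: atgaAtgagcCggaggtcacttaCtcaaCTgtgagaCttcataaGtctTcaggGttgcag
Klra4: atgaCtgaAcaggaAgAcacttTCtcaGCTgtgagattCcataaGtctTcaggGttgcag

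Over the first 300 coding bases, Klra5 and Klra9 were 90.3% identical and Klra1 was 82.2% identical to Klra5. Klra9 was 96.0% identical to Klra10, a Ly49 gene the rule did not use. These sequences are those of the reference genome, and NOD mice carry a different set of Ly49 genes from the reference strain. The split of UMIs between the Klra genes is therefore uncertain, and the family was described without a test.

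Ly49+CD3+ cells made up 2.83% of filtered cells in library 1 (95% exact Clopper-Pearson interval 2.33 to 3.41), 1.62% in library 2 (1.36 to 1.92) and 3.26% in library 3 (2.43 to 4.28). For this share the interval of library 2 did not overlap those of the other libraries. Over the 3 libraries the share was 2.57% ± 0.85 (SD, n = 3). Among cells with a Cd3 UMI the shares were 3.24% (2.67 to 3.90), 2.55% (2.14 to 3.01) and 3.92% (2.92 to 5.13), and all 3 intervals overlapped. A sort, the digestion and the number of other cells all set such shares, and the intervals cover counting error only. The median depth of members was 4840, 4848.5 and 3170 UMIs per cell in the 3 libraries, against 3985.5, 4659 and 1726 UMIs over all deposited cells.

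The members were compared with 4 other groups of cells from the same libraries. CD8+ T cells had a Cd3 and a Cd8b1 UMI (609, 578 and 142 cells). NK cells had an Ncr1 UMI and no Cd3 UMI (46, 75 and 12 cells). γδ T cells had at least 2 Trdc UMIs and at most 1 Ly49 UMI (22, 57 and 3 cells), and the 3 cells of library 3 were too few to be summed. Ly49-zero T cells met the rule except that they had no UMI of the 3 Ly49 genes and fewer than 2 of Trdc (565, 1532 and 724 cells). Some cell barcodes were shared between libraries (36, 7 and 14 in the 3 pairs), and none of them was a member in both.

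Along the rule, Ly49 UMIs fell into a low and a high range without a gap. Of the cells that met the other criteria, 2884 had none, 92 had 1 and were just outside, 57 had 2 and were just inside, and 69 had more than 9. Members had a median of 5 Ly49 UMIs and at most 48. The NK receptor gene Klrd1 was detected in 12.4% of cells with no Ly49 UMI, in 71.7% of cells with 1, in 70.2% of cells with 2 and in 95.7% of cells with more than 9. Depth rose along the same steps, with medians of 1994, 2963.5, 3238 and 7408 UMIs. Cells just outside the threshold were thus close to those just inside it in this gene. The same held for Fcer1g (59.8% and 59.6%), but less so for others. From 1 to 2 Ly49 UMIs, detection went from 23.9% to 50.9% for Itgax, from 32.6% to 43.9% for Itga1, from 9.78% to 24.6% for Htra3 and from 38.0% to 50.9% for Tyrobp. Trdc went from 33.7% to 43.9% and Cd8a from 34.8% to 40.4%, whereas Xcl1 went down from 28.3% to 24.6%.

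The Ly49 genes that members carried differed between libraries. Klra9 gave 50.3% of the Klra1, Klra5 and Klra9 UMIs of members in library 1, Klra5 gave 55.4% in library 2 and Klra1 gave 54.4% in library 3. Klra5 alone was found in 41.0% of members in library 2 against 16.5% in library 1 and 18% in library 3. Klra1 and Klra9 together, without Klra5, were found in 34.9%, 13.4% and 26.0%. Levels below are CPM, UMIs per 1000000 UMIs of the summed cells of a group in a library after TMM scaling. Klra4, the activating Ly49D gene, was not part of the rule and stood at 1210, 296 and 900.2 CPM in libraries 1, 2 and 3. Of the remaining family members, Klra7 had 189 ± 48.0 CPM, Klra8 had 188 ± 116 CPM and Klra6 had 89.6 ± 70.0 CPM (mean ± SD, n = 3), while Klra2, Klra3, Klra10 and Klra17 had under 30 CPM in every library.

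The marker genes given with the label were present. Itga1, encoding the collagen-binding integrin chain CD49a of tissue-resident lymphocytes, stood at 320, 121 and 131 CPM in the members of libraries 1, 2 and 3. Its mean was 191 ± 112 CPM in members, 96.1 ± 43.6 CPM in NK cells and 17.9 ± 10.1 CPM in CD8+ T cells (n = 3). Library 1 stood above the others in members, and the lowest member library was still above all 3 CD8+ T cell libraries, whereas the NK cells of library 3 (143 CPM) lay within the range of members.

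Itgax, encoding the integrin chain CD11c, stood at 510, 228 and 148 CPM in members, above every NK library (143, 125 and 0 CPM) and every CD8+ T cell library (mean 8.25 ± 4.27 CPM). Htra3, a secreted serine protease gene, had 122, 154 and 79.8 CPM in members and at most 23.0 CPM in any NK or CD8+ T cell library, but it reached 124 CPM in the γδ T cells of library 2. Xcl1, encoding the chemokine that attracts cross-presenting dendritic cells, had 315, 1184 and 843 CPM in members. Its NK cell libraries lay within that range at 930, 763 and 760 CPM, so Xcl1 did not separate members from NK cells.

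In single cells, Itga1 and Itgax were found together in 59.6% of members in library 1, 27.6% in library 2 and 12.0% in library 3. After each cell was thinned to 1000 UMIs, Itgax was detected in 43.6%, 19.1% and 10.4% of members, 1.28%, 0.52% and 0% of CD8+ T cells and 0% of B cells (221, 368 and 73 B cells), which gave the background of free RNA. Unthinned, the shares of members with Itgax were 74.3%, 53.0% and 34.0%, and those of B cells 1.27%, 2.45% and 0%.

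**Figure D1:**
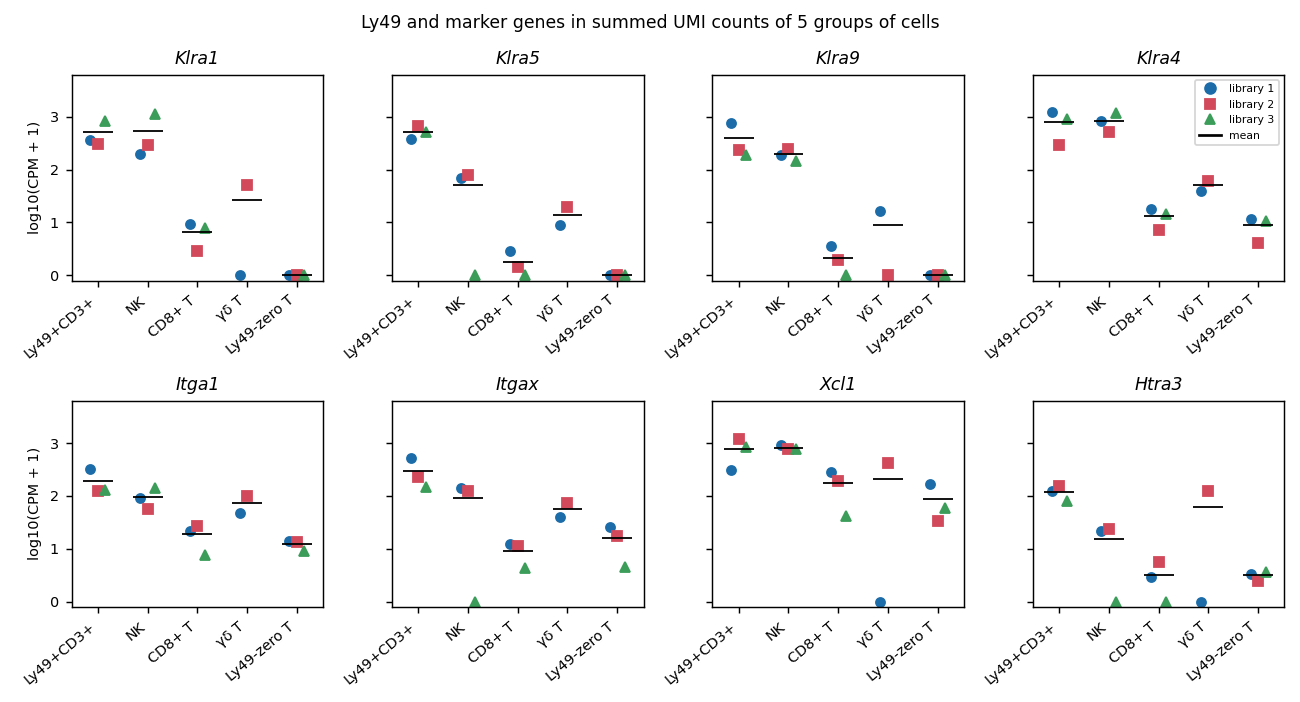
Levels of the 3 Ly49 genes of the rule, of Klra4 and of 4 marker genes as log10(CPM + 1) in 5 groups of cells, 1 point per library and a black line at the mean (2 libraries for γδ T cells). Klra5, Klra9, Itga1, Itgax and Htra3 were highest on average in Ly49+CD3+ cells, while Klra1, Klra4 and Xcl1 were at similar levels in NK cells. The first 3 genes chose the cells.

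The label calls these cells unconventional T cells, and the antigen receptor genes bore this out for only some of them. T cells assemble receptors from V segments (Trav, Trbv, Trgv and Trdv), and mature αβ or γδ T cells transcribe the segments they use. No V segment UMI of any chain was found in 46 members of library 1 (42.2%), 11 of library 2 (8.21%) and 22 of library 3 (44.0%). In CD8+ T cells the same held for 2.13%, 2.94% and 6.34%, and in NK cells for 63.0%, 69.3% and 83.3%. Libraries 1 and 3 thus held many members that showed no rearranged receptor at this depth, and library 2 held few. Members without a segment had a median of 2893, 5071 and 2751.5 UMIs against 4975, 4799 and 4009.5 in members with one, so in libraries 1 and 3 they were also shallower, and the part of depth was not tested.

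Members without a segment also had another balance of CD3 chains. Values here are unscaled CPM, computed on the plain UMI total without TMM scaling. Cd3g stood at 1819, 933 and 994 unscaled CPM in them, against 1999, 2386 and 1719 in members with a segment. Cd3e, by contrast, stood at 57.1, 16.1 and 50.5 unscaled CPM, against 1510, 1849 and 1521. In CD8+ T cells Cd3e was the more abundant chain in every library (2468 against 1619 unscaled CPM for Cd3g in library 1). In γδ T cells of libraries 1 and 2, as in members with a segment, Cd3g was the more abundant chain. Its TMM-scaled levels in γδ T cells were 1939 and 2944 CPM, against 1759 and 2335 CPM for Cd3e. The members without a segment thus stood apart in their low Cd3e. In cells with a Cd79a UMI, where Cd3 RNA is background, both chains were found in about the same share of cells (Cd3g in 43.8%, 26.8% and 11.1% and Cd3e in 41.7%, 26.6% and 11.1%). Among all cells with an Ncr1 UMI, whatever their Cd3 UMIs, Cd3g was likewise found in 61.2%, 60.1% and 65.3% and Cd3e in 33.2%, 34.0% and 24.5%. The members without a segment are therefore not called T cells here, and counts of called genes and results of some genes are also given for members with a segment.

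Other genes moved with this split, which is described without a test because the groups were set by receptor UMIs of the same cells. Klra5 stood at 592, 632 and 578 unscaled CPM in members with a segment and at 129, 96.5 and 202 in members without one. Klra4 showed the reverse order, at 886, 195 and 432 against 2080, 1014 and 1668. Tyrobp, the adaptor gene of Ly49D, followed Klra4, at 1863, 941 and 958 against 3604, 5407 and 3554. In each of these 3 genes the values of the subsets did not overlap over the libraries. The subset without a segment had 46, 11 and 22 cells, so its values in library 2 rest on few cells.

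Further genes differed between the subsets in some or all libraries. Pdcd1, encoding the checkpoint receptor PD-1, stood at 336, 433 and 497 unscaled CPM with a segment and at 28.6, 16.1 and 33.7 without. Cxcr6, a chemokine receptor gene of resident T cells, stood at 699, 477 and 278 against 190, 0 and 16.8, and Ikzf2, encoding the transcription factor Helios, at 196, 147 and 227 against 19.0, 64.4 and 67.4. Xcl1 had the same direction, at 523, 1120 and 973 against 57.1, 96.5 and 253. Fcer1g, which encodes an adaptor of Fc and NK receptors, overlapped between the subsets (1041, 1184 and 1009 against 871, 1159 and 1347), and Itga1 went in different directions in the 3 libraries. Itgae, encoding the integrin chain CD103, was likewise lower with a segment in library 1 and higher in libraries 2 and 3 (497, 364 and 183 against 800, 80.5 and 101). After thinning, Pdcd1 was detected in 17.2%, 30.3% and 32.1% of members with a segment and in 2.33%, 0% and 5% of those without, and unthinned in 38.1%, 49.6% and 46.4% against 10.9%, 9.09% and 4.55%.

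**Figure D2:**
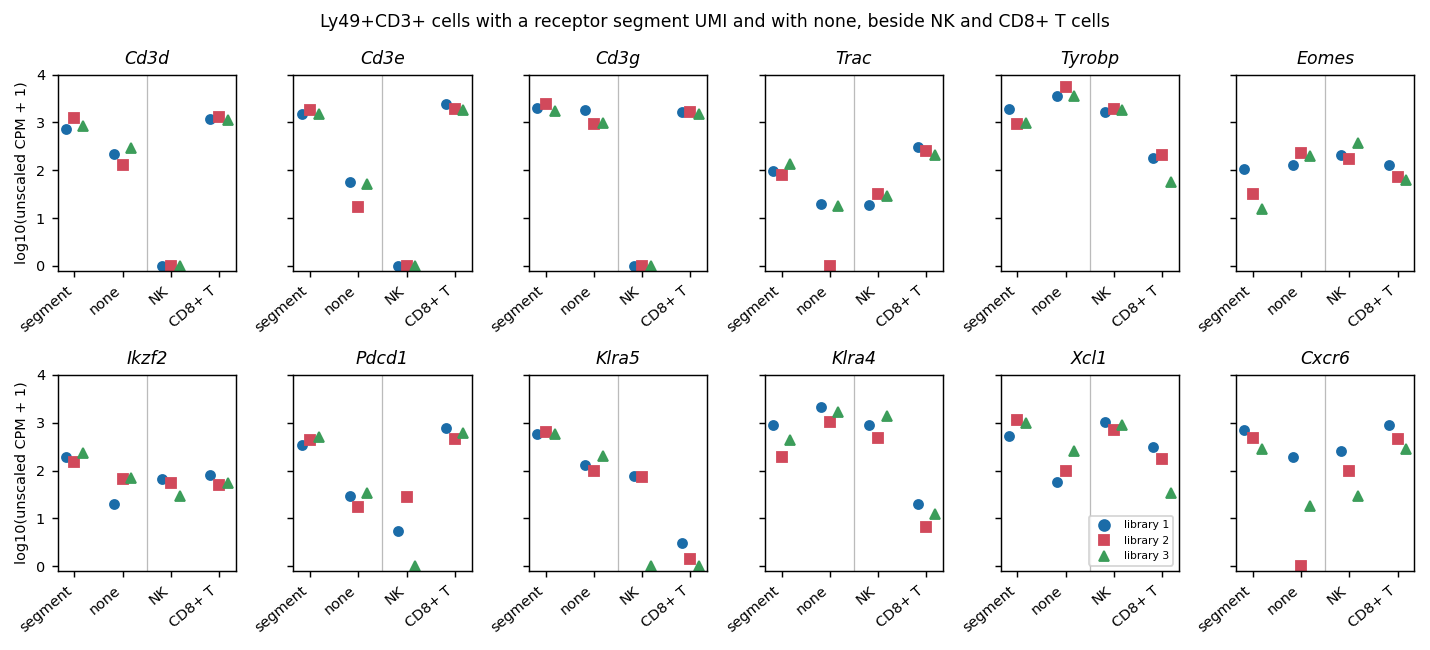
Levels of 12 genes as log10(unscaled CPM + 1), with 1 point per library, in Ly49+CD3+ cells with a V segment UMI, in those with none, and in NK and CD8+ T cells. Cd3e, Klra5, Pdcd1 and Xcl1 were lower and Tyrobp and Klra4 higher in members without a segment, whereas Cd3g was at 933 unscaled CPM or more in both. NK cells are at 0 in the Cd3 genes because their gate required it.

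Segments of γδ type were found in more members than Trav segments restricted to the α chain. Tcrg-V1, a γ chain segment, was found in 27, 83 and 11 members (24.8%, 61.9% and 22.0%) against 7.06%, 17.6% and 6.34% of CD8+ T cells. Segments of the Trav15-dv6 family, which can join either an α or a δ chain, were found in 21.1%, 38.1% and 12.0% of members against 2.96%, 1.38% and 0.704% of CD8+ T cells. Trdv segments of the δ chain were found in 18.3%, 16.4% and 30.0% of members, but also in 19.6%, 28.0% and 16.7% of NK cells, so a Trdv UMI alone did not mark a γδ T cell. At least 1 of these 3 kinds was present in 41.3%, 76.1% and 52.0% of members, against 23.9%, 29.3% and 16.7% of NK cells and 10.2%, 20.2% and 7.75% of CD8+ T cells. In γδ T cells of libraries 1 and 2 the share was higher than in members, at 90.9% and 96.5%. In library 3, 15 of the 26 members counted here had a Trdv UMI.

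Trav use of members was concentrated on a segment that can also join a δ chain. Trav15-1-dv6-1 was the most frequent Trav gene of members in every library, found in 19 of 38, 39 of 78 and 5 of 10 members with any Trav UMI. It also led in γδ T cells, in 5 of 9 and 15 of 29 cells with a Trav UMI in libraries 1 and 2. In CD8+ T cells the leading Trav gene was another in each library (Trav3-1, Trav3-3 and Trav13n-4), in 32.4%, 31.8% and 9.52% of cells with a Trav UMI. Among Trav segments not shared with the δ chain, the leading one was found in 25.0%, 36.7% and 33.3% of members with any. Library 3 had only 3 such members. The same shares in CD8+ T cells were 34.3%, 33.4% and 9.90%. A Trav segment not shared with the δ chain together with a Trbv segment, as in an αβ receptor, was found in 11, 25 and 3 members. Of these, 6, 12 and 0 had no Tcrg-V1, dv6 or Trdv UMI. In CD8+ T cells the pair was found in 72.1%, 58.0% and 57.0%.

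The invariant NKT segment Trav11 had no UMI in members. A Trbv UMI was found in 33.0%, 29.9% and 34.0% of members. In B cells without a Cd3 UMI it was found in 16.9% of library 1 but in 0% and 1.23% of libraries 2 and 3. The part of background in the member share of library 1 was not tested. Tcrg-V1 was found in 0%, 0% and 1.23% of B cells. Trgv2 was detected in 39.1%, 40.5% and 23.2% of CD8+ T cells as well as in 26.6%, 70.1% and 38.0% of members, and the γ segments share sequence, so their assignment is uncertain.

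**Figure D3:**
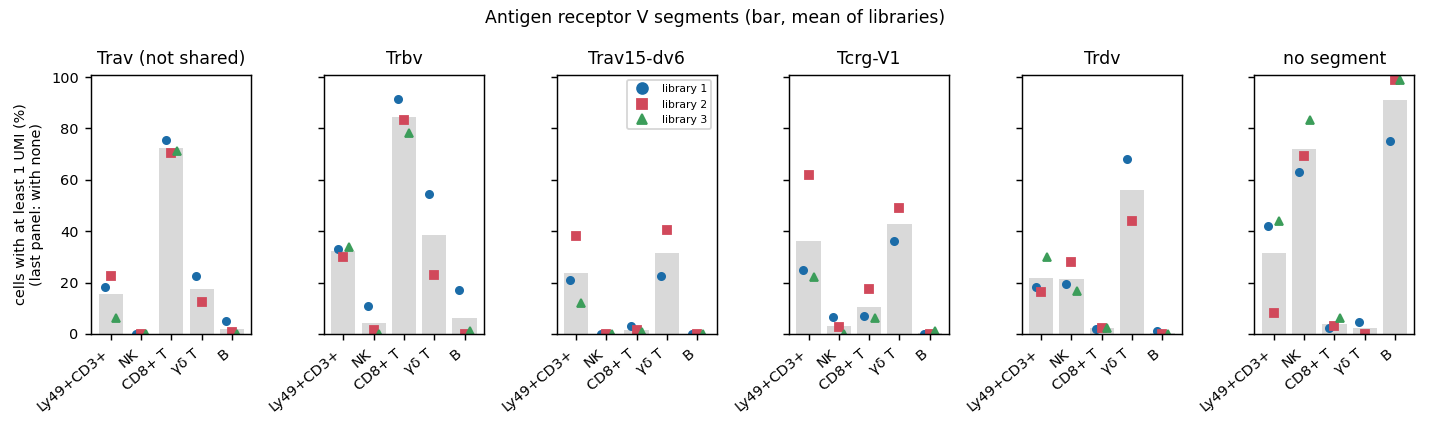
Share of cells (%) with at least 1 UMI of each class of V segment, and in the last panel with none, in Ly49+CD3+, NK, CD8+ T, γδ T and B cells, with 1 point per library and bars at the mean over libraries (2 for γδ T cells). Ly49+CD3+ cells lay far below CD8+ T cells in Trav and Trbv and near γδ T cells in Tcrg-V1 and Trav15-dv6. In Trdv they lay below γδ T cells (68.2% and 43.9%) and near NK cells. Of their 3 libraries, 2 had over 40% of cells with no segment.

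The comparison with CD8+ T cells asked how these cells differ from the conventional cytotoxic T cells of the same nerves. Of 7038 genes tested on the summed UMIs with edgeR's quasi-likelihood test and the library as a block, 678 passed an adjusted p of 0.05, which is 9.63% of them. Of these, 356 were higher in members (5.06%) and 322 lower (4.58%). When only members with a V segment UMI were summed, 478 genes passed, 452 of which were among the 678. All 629 of the 678 genes that could be tested there kept their direction. Genes of the rule, the Klra family and the markers given with the label were not tested.

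NK receptor genes outside the Ly49 family were higher. Of 19 tested, 13 rose and 1 fell, with a median log2 difference of 1.95 where all 7038 genes had a median of -0.00. Klrb1a, of the NKR-P1 receptor family, stood at 63.4, 88.0 and 103 CPM in members and at 1.28, 1.86 and 0 CPM in CD8+ T cells (log2 difference 5.61 ± 0.40 (SE), adjusted p = 9.1e-09). Its relatives Klrb1b (258, 89.4 and 137 CPM) and Klrb1f (110.5, 63.5 and 120 CPM) rose by 5.38 ± 0.48 and 4.70 ± 0.34 on the log2 scale. Members and CD8+ T cells did not overlap in these genes. Klrb1c, the NK1.1 gene, had 26 UMIs in members and 2 in CD8+ T cells, a ratio of 48.9 with a 95% counting interval of 12.2 to 425. Its log2 difference was 5.17 and became -1.47, with no call, when cells were thinned to 1000 UMIs. Klri2, a further lectin-like receptor gene, also passed (1.95 ± 0.34), but its difference was 0.81 in members with a segment and -0.39 in members with a Cd3e UMI, neither called. Klrc1, encoding NKG2A, was the gene that fell, with 161, 173 and 325 CPM in members and 635, 441 and 744 CPM in CD8+ T cells (log2 difference -1.53 ± 0.21, adjusted p = 2.2e-05).

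Receptor signalling genes went in both directions. Of 21 tested, 7 were higher and 8 lower. The adaptor gene Fcer1g stood at 885, 1347 and 1242 CPM in members and at 86.5, 121 and 57.0 CPM in CD8+ T cells (3.73 ± 0.38 on the log2 scale, adjusted p = 5.3e-07). Tyrobp stood at 2283, 1473 and 1949 CPM against 164, 230 and 67.0 CPM (3.69 ± 0.44), and in members with a segment the difference was 3.07. Plcg2 and Lat2, a phospholipase and an adaptor used by B and NK cell receptors, rose by 3.20 and 3.07. The lower genes named here act at the T cell receptor. Themis, needed for T cell development, fell by 2.89 ± 0.33, Ubash3a by 2.21 ± 0.37, Cd247, which encodes the ζ chain, by 1.94 ± 0.25 and Lat, the scaffold adaptor, by 1.82 ± 0.24. Cd247 had 86.1, 92.3 and 34.2 CPM in members and 365, 272 and 258 CPM in CD8+ T cells, with no overlap.

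T cell coreceptor and costimulation genes were mostly lower, 8 of 14 tested against 2 higher. Cd6, a T cell adhesion receptor gene, had 27.6, 17.3 and 17.1 CPM in members and 306, 135 and 208 CPM in CD8+ T cells (-3.30 ± 0.24, adjusted p = 9.1e-09). Cd28, the main costimulatory receptor gene, had 50.4, 27.4 and 68.4 CPM against 412, 381 and 473 CPM (-3.26 ± 0.24). Cd5 fell by 2.71 ± 0.28. Cd8a, which can form a homodimer without CD8β, had 125, 275 and 79.8 CPM in members and 1026, 959 and 751 CPM in CD8+ T cells (-2.52 ± 0.40), and the Cd8b1 gate of both groups bears on it. Cd7 rose, with 916, 1284 and 1669 CPM against 280, 399 and 295 CPM (1.95 ± 0.36).

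Among 7 tested constant genes of the antigen receptor, 2 rose and 3 fell. Trdc, the δ chain constant gene, had 123, 288 and 239 CPM in members and 8.30, 5.58 and 13.4 CPM in CD8+ T cells (4.77 ± 0.37, adjusted p = 2.2e-08). Trac, that of the α chain, had 60.1, 83.6 and 108 CPM against 282, 274 and 251 CPM (-1.80 ± 0.20). Trbc1 and Trbc2 fell by 0.91 and 0.79, and in members with a segment neither passed (-0.64 in both). Trdc was also found in NK cells at 196, 109 and 23.8 CPM.

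Cytotoxic granule genes were mostly higher, 8 of 18 tested against 1 lower, but the granzymes were divided. Gzmc had 55.2, 153 and 91.2 CPM in members and 2.87, 3.26 and 0 CPM in CD8+ T cells (4.99 ± 0.39, adjusted p = 2.2e-08). Prf1, the perforin gene, had 513, 431 and 154 CPM against 191, 138 and 57.0 CPM (1.5 ± 0.2). Gzmb passed narrowly (1.68 ± 0.52, adjusted p = 0.046) and overlapped between groups, at 1335, 3453 and 672 CPM against 316, 386 and 1092 CPM, and in members with a segment its adjusted p was 0.062. Gzmk, a granzyme gene of memory-like T cells, was lower at 84.5, 46.2 and 74.1 CPM against 636, 529 and 848 CPM (-3.26 ± 0.23). Gzma did not pass (0.72 ± 0.43, adjusted p = 0.38).

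Of 28 transcription factor genes tested, 5 were higher and 8 lower. Tbx21, encoding the effector regulator T-bet, had 266, 258 and 234 CPM in members and 75.3, 79.1 and 77.1 CPM in CD8+ T cells (1.72 ± 0.22, adjusted p = 1.0e-05). Zfp683, which encodes the residency factor Hobit, had 4.87, 54.8 and 17.1 CPM against 2.23, 5.12 and 6.70 CPM (2.49 ± 0.59), with library 2 above all others and library 1 within the range of CD8+ T cells. Zbtb16, encoding PLZF, the regulator of innate-like T cells, had 22 UMIs in members and 3 in CD8+ T cells, a ratio of 27.6 (95% counting interval 8.28 to 144), and was low in members at 16.2, 15.9 and 5.70 CPM. Irf8, an interferon regulatory factor also made by dendritic and B cells, rose by 2.87 ± 0.48. Lef1 and Tcf7, regulators of resting and stem-like T cells, fell by 2.35 ± 0.43 and 1.58 ± 0.29, Klf2, which drives egress genes, by 1.73 ± 0.20, and Tox, the exhaustion regulator, by 1.58 ± 0.22.

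Of 23 homing and adhesion genes tested, 6 were higher and 6 lower. Itgae, encoding CD103, had 554, 389 and 177 CPM in members and 53.9, 50.2 and 6.70 CPM in CD8+ T cells (3.22 ± 0.25, adjusted p = 2.2e-08). Ccr7, the lymph node homing receptor gene, had 1.62, 8.65 and 39.9 CPM against 213, 185 and 295 CPM (-4.45 ± 0.48), and S1pr1, the egress receptor gene, had 1.62, 8.65 and 5.70 CPM against 120, 72.6 and 121 CPM (-4.16 ± 0.43). Neither gene overlapped between groups.

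Of 18 cytokine and chemokine genes, 4 rose and 3 fell. Il13, a type 2 cytokine gene, had 39 UMIs in members, most of them in library 2 (1.62, 50.5 and 17.1 CPM), and none in CD8+ T cells, which is at least 48.9-fold higher when set against 3 UMIs over that whole group. Ccl1 rested on library 2, with 1.62, 99.5 and 0 CPM. Cxcl10 passed (1.83 ± 0.30), but it had no UMI in members of library 3, and its difference was -1.91 in members without a Trdc UMI and -1.86 when cells with a macrophage or B cell UMI were left out, both past the threshold in the other direction. Tgfb1, encoding TGF-β1, had 596, 521 and 638 CPM against 229, 220 and 171 CPM (1.45 ± 0.20). Tnfsf11 and Areg were lower by 2.51 ± 0.54 and 2.20 ± 0.47, both with under 22 CPM in every member library. Ifng did not pass (-0.65 ± 0.28, adjusted p = 0.18).

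Of 17 cytokine receptor genes, 2 rose and 2 fell. Il2rb, the receptor chain shared by IL-2 and IL-15, had 1498, 1118 and 906 CPM in members and 527, 401 and 352 CPM in CD8+ T cells (1.45 ± 0.20, adjusted p = 2.5e-05), and Tgfbr3 rose by 1.07 ± 0.23. Il7r fell by 1.61 ± 0.30 and Il10ra by 1.22 ± 0.26. Among 11 inhibitory receptor genes, none rose and 3 fell. Havcr2, encoding TIM-3, had 21.1, 7.21 and 0 CPM in members and 145, 87.5 and 70.4 CPM in CD8+ T cells (-3.20 ± 0.31). Pdcd1 fell by 0.91 ± 0.27 (adjusted p = 0.034), but in members with a segment it did not pass (-0.54, adjusted p = 0.22).

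The remaining genes with the largest differences were of mixed function. Clnk, an adaptor gene of immune receptors, had 99.1, 46.2 and 62.7 CPM in members and at most 2.23 CPM in any CD8+ T cell library (5.43 ± 0.55). Hhex, a homeobox factor gene, had 58.5, 88.0 and 68.4 CPM against at most 2.79 CPM (5.36 ± 0.36). Sulf2, Emid1 and Spry2 rose by 5.36, 5.06 and 4.17 on the log2 scale, and Spp1, the osteopontin gene, by 4.04 ± 0.72 with most of its UMIs in library 2 (4.87, 261 and 45.6 CPM). Nrn1, Klf3 and Slfn1 fell by 3.48, 3.47 and 2.78.

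Apart from Pecam1, the called markers of other cell types and of dissociation stress were lower in members. Of all 7038 genes tested, 9.63% were called. The 10 macrophage markers summed to 362, 159 and 35.7 unscaled CPM in members and 266, 480 and 157 in CD8+ T cells, and 1 of 7 tested (Apoe) was lower in members. The 10 dendritic cell markers summed to 6320, 2882 and 3289 in members and 3373, 5448 and 1083 in CD8+ T cells, and 2 of 7 tested (Siglech and Ccr7) were lower. Of 2 B cell markers tested 1 was lower (Igkc), the 1 neutrophil marker tested did not pass, and of 10 dissociation stress genes 1 was lower (Dnajb1, by 0.71). Of 2 Schwann and stromal markers tested, Mbp, the myelin basic protein gene, was lower (-1.13 ± 0.23) and Pecam1, an endothelial gene also made by leukocytes, was higher (1.45 ± 0.39). Pecam1 had a difference of 0.28 in members with a segment and -0.00139 in members with a Cd3e UMI.

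Against NK cells, the question was what separates the members from innate lymphocytes that also carry Ly49 receptors. The levels of single Ly49 genes were not the same in both. Klra5, a gene of the rule, had 379, 672 and 518 CPM in members and 69.3, 79.0 and 0 CPM in NK cells. Klra6, outside the rule, had 16.2, 156 and 96.9 CPM against 0, 3.29 and 0 CPM. Of the 7038 genes, 226 passed (3.21%), with 139 higher in members (1.97%) and 87 lower (1.24%). Without library 2 the count was 127. The 12 NK cells of library 3 gave the shallowest sum, at 35501 UMIs, so a value of 0 CPM there has little weight. With members that had a segment 244 genes passed, 202 of them shared with the 226.

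Of 23 homing and adhesion genes 6 were higher in members than in NK cells and 3 lower, and of 14 coreceptor and costimulation genes 1 was higher (Cd8a) and 2 lower (Cd28 by 2.00 ± 0.29 and Tnfrsf18 by 0.98 ± 0.22). Itgae had 554, 389 and 177 CPM in members and 0, 9.87 and 23.8 CPM in NK cells (6.01 ± 0.52, adjusted p = 3.7e-07), without overlap. Pdcd1 had 200, 456 and 399 CPM against 4.08, 29.6 and 0 CPM (4.31 ± 0.52), and the checkpoint genes Lag3 and Ctla4 rose by 2.25 ± 0.32 and 1.38 ± 0.26. With Pdcd1 they were the 3 of 11 inhibitory receptor genes that rose, and none fell. Pdcd1 stood at 336, 433 and 497 unscaled CPM in members with a segment but at 28.6, 16.1 and 33.7 in those without. Ifitm1, an interferon-induced gene of antiviral restriction, had 106, 183 and 188 CPM in members and no UMI in NK cells, at least 29.9-fold higher against 3 UMIs over the group. Cd8a had 282 UMIs against 3 in NK cells (ratio 37.4, 95% counting interval 12.7 to 183), and Trat1, a T cell receptor-associated adaptor gene, 140 against 2 (27.9, interval 7.58 to 232).

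Of the tested constant genes, 3 of 7 were higher and none lower. Tcrg-C2 had 70 UMIs in members and none in NK cells, at least 9.29-fold higher, and Trac rose by 1.61 ± 0.39. The gates required a Cd3 UMI in members and none in NK cells, which bears on these genes, Cd8a and Trat1. Trdc did not pass (0.63 ± 0.35, adjusted p = 0.43). Of the cytokine genes, Ccl5 had 9119, 29238 and 20710 CPM against 4722, 8417 and 7387 CPM (1.39 ± 0.23, adjusted p = 0.0012), and Ifng rose by 1.96 ± 0.50. Cxcl10 had 243 UMIs against 3, all of the former in libraries 1 and 2. Matk, Igflr1, Trerf1, Ass1 and Ifitm3 rose by 2.62 to 3.66 on the log2 scale.

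Of 18 cytotoxic granule genes 2 were higher in members and 4 lower. Gzmc and Tnfsf10, the gene of the death ligand TRAIL, rose by 2.62 ± 0.49 and 1.74 ± 0.37. Gzma had 393, 978 and 296 CPM in members and 3299, 4682 and 3135 CPM in NK cells (-2.75 ± 0.42, adjusted p = 5.4e-04), without overlap. The serpin genes of the list fell too, Serpinb9 by 2.74 ± 0.19 and Serpinb6b by 2.51 ± 0.25, and Serpinb9b had 2 UMIs in members against 68 in NK cells, a ratio of 85.4 per unit of depth (95% counting interval 22.7 to 719). Of the NK receptors, 4 of 19 were lower and none higher, namely Klrb1c (-3.15 ± 0.44), Klrb1b (-1.58 ± 0.34), Klrb1a (-1.56 ± 0.25) and Klre1 (-0.92 ± 0.24). Tmsb15a, Pde2a, Tmem176b, Gpc1 and Cd9 fell by 2.53 to 5.0.

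The IL-18 receptor chains fell as well, Il18r1 by 2.03 ± 0.35 and Il18rap by 1.60 ± 0.26, as did Eomes, the NK cell regulator gene, with 104, 51.9 and 79.8 CPM in members and 192, 188 and 309 CPM in NK cells (-1.43 ± 0.25). Fcer1g (-0.39 ± 0.34, adjusted p = 0.69), Tyrobp (0.23 ± 0.41, adjusted p = 0.88) and Gzmb (1.01 ± 0.52, adjusted p = 0.39) did not pass. For Tyrobp the sign was reversed in members with a segment (-0.45). Rgs1, a gene of lymphocyte retention in tissue, had 2699, 3261 and 3299 CPM against 661, 1043 and 689 CPM (1.85 ± 0.27), and Cxcr6 had 460, 500 and 222 CPM against 237, 102 and 23.8 CPM (1.65 ± 0.28). Cxcr6 stood at 699, 477 and 278 unscaled CPM in members with a segment but at 190, 0 and 16.8 in those without. In the opposite direction to Rgs1, Ccr7, the lymph node homing gene, fell by 3.11 ± 0.66, and Lef1 and Klf2 by 2.38 and 1.52.

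Against γδ T cells with at most 1 Ly49 UMI, the comparison rested on libraries 1 and 2 of that group. It called 100 of 7038 genes (1.42%), 25 higher in members (0.355%) and 75 lower (1.07%). The count was unstable, at 45 without library 1, 215 without library 2 and 40 without library 3, and at 6 when only these 2 groups were fitted.

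Il17a, Cd163l1 and Blk were at 0 UMIs in members. Il17a, the IL-17A cytokine gene, had no UMI in members of libraries 1 and 2 and 492 UMIs in γδ T cells (2642 and 705 CPM), which puts members at least 620-fold lower against 3 UMIs over the group. The same held for Cd163l1, a scavenger receptor gene of IL-17-producing γδ T cells (176 UMIs, at least 222-fold lower), and Blk, a kinase gene (70 UMIs, at least 88.2-fold lower). Aqp3, Ltb4r1 and Serpinb1a fell by 5.50, 5.26 and 4.72 on the log2 scale. Il7r had 42.2 and 98.1 CPM in members of libraries 1 and 2 against 719 and 279 CPM (-2.82 ± 0.35, adjusted p = 8.2e-05).

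Cytotoxic genes were higher in members, 4 of 18 tested with none lower. Gzma had 920 UMIs in members of these 2 libraries and 1 in γδ T cells, a ratio of 243 (95% counting interval 43.6 to 9626). This interval, like the other counting intervals given, takes the UMIs of 1 cell as independent. Gzma was detected in only 8.26% and 14.9% of members in libraries 1 and 2, and in 0% and 1.75% of γδ T cells. Prf1 rose by 1.10 ± 0.26 and Gzmc by 2.14 ± 0.53, the latter at -0.0845 in members without a Trdc UMI. Tyrobp had 2283 and 1473 CPM against 492 and 128 CPM (3.10 ± 0.55, adjusted p = 0.0036), and Klrg1 had 132 UMIs against 1. Cd247 and Lat were lower by 2.06 ± 0.31 and 1.76 ± 0.28, as they were against CD8+ T cells, which shared the same member sums.

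The MHC class II genes H2-Aa, H2-Ab1 and Cd74 rose by 3.31, 3.11 and 2.49. These are markers of dendritic and B cells, and 3 of 7 tested genes of the dendritic cell list rose with none lower. That list summed to 6320 and 2882 unscaled CPM in members of libraries 1 and 2, to 1446 and 1319 in γδ T cells and to 31484 and 23435 in B cells. H2-Aa was detected in 24.8%, 33.6% and 8% of members, and in 11.9%, 16.0% and 4.17% after thinning. In γδ T cells of libraries 1 and 2 it was detected in 36.4% and 45.6%, and in 18.2% and 25% after thinning, so the shares of cells did not have the order of the summed levels. The part of RNA from antigen-presenting cells in these differences was not tested. Cxcl10 passed too (2.53 ± 0.58), but was at -1.24 in members without a Trdc UMI and -0.37 when cells with macrophage or B cell UMIs were left out.

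**Figure D4:**
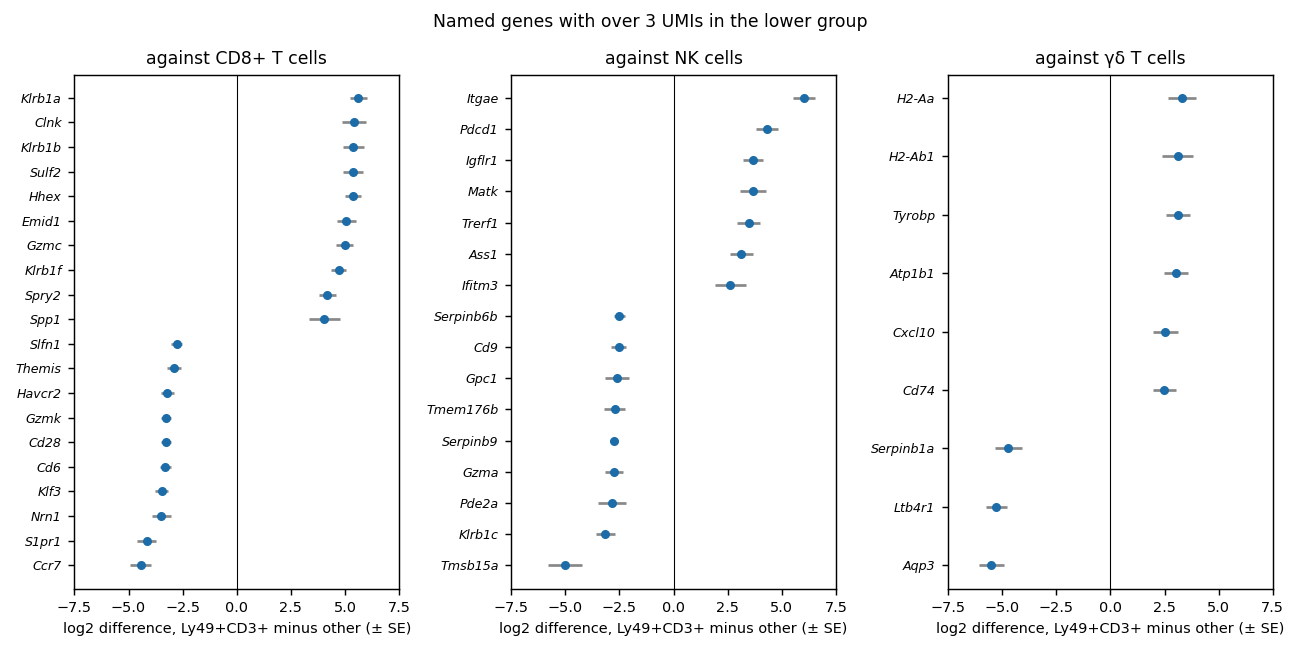
Log2 differences (x axis, Ly49+CD3+ cells minus the other group, bars ± SE) of the genes with the largest called differences against CD8+ T, NK and γδ T cells, leaving out genes with 3 or fewer UMIs in the lower group. Klrb1a was highest against CD8+ T cells (5.61) and Itgae against NK cells (6.01), and Ccr7, Tmsb15a and Aqp3 were lowest against the 3 groups (-4.45, -5.0 and -5.50).

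Ly49-zero T cells differed from members in 2 criteria, the lack of Ly49 UMIs and the limit of fewer than 2 Trdc UMIs, and against them 1219 of 7038 genes passed (17.3%), with 559 higher in members (7.94%) and 660 lower (9.38%). Without library 2 there were 743. With members that had a segment 910 genes passed, 863 of them shared with the 1219. These cells were a mixture, and shallower (medians of 2350, 2142 and 1455.5 UMIs). Their macrophage markers summed to 1887, 1221 and 291 unscaled CPM against 362, 159 and 35.7 in members. Their dendritic cell markers summed to 18352, 10967 and 2004 against 6320, 2882 and 3289, so library 3 had the opposite order from libraries 1 and 2. Of the 10 macrophage markers, 6 of the 7 tested were lower in members.

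Of 19 NK receptor genes, 17 rose in members and none fell. Klrk1, encoding NKG2D, had 523, 415 and 234 CPM against 84.5, 53.5 and 44.8 CPM (2.69 ± 0.19, adjusted p = 4.0e-09), and Klrd1, encoding CD94, had 604, 676 and 724 CPM against 93.6, 84.0 and 104 CPM (2.82 ± 0.25). Cytotoxic genes rose in 12 of 18 and fell in 2, led by Gzmc (5.22 ± 0.37) and Prf1, with 513, 431 and 154 CPM against 30.6, 23.5 and 13.2 CPM (4.04 ± 0.23). Car2, a carbonic anhydrase gene, had 125, 38.9 and 154 CPM in members and at most 4.39 CPM in any Ly49-zero library (5.32 ± 0.37).

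Of 14 coreceptor and costimulation genes 3 were higher and 9 lower, and of 18 cytokine and chemokine genes 4 were higher (Ccl1, Il13, Ccl5 and Tgfb1) and 5 lower. Foxp3, the regulatory T cell factor gene, had 16.2, 4.33 and 0 CPM in members and 128, 124 and 111 CPM in Ly49-zero T cells (-3.86 ± 0.39), and Tnfrsf4, encoding OX40, had 56.9, 15.9 and 28.5 CPM against 745, 641 and 878 CPM (-4.50 ± 0.34). Il10 and Areg fell by 3.96 ± 0.44 and 4.42 ± 0.40. The comparison group lacked Cd4 and Cd8b1 UMIs at a low depth, where missing Cd4 UMIs do not show that a cell was not a CD4+ T cell. Of 28 transcription factor genes 8 rose and 13 fell. Maf fell by 3.09 ± 0.29 and S1pr1 by 5.17 ± 0.39, while Tbx21 rose by 2.64 ± 0.22.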

How the data were processed

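CD45+ cells of 3 libraries were profiled with 10x Genomics chemistry. For every cell and gene, the authors deposited unnormalised UMI counts made with Cell Ranger (5.0.1 in library 1, 6.1.2 in libraries 2 and 3, mm10, 32285 genes), along with barcode and gene lists. Library 1 took the gene order of the other libraries. Cells with over 5000 genes or over 20% mitochondrial UMIs were removed, and no cell kept had under 300 UMIs. Total depth was 22983991, 55120460 and 3399733 UMIs in libraries 1, 2 and 3. Raw UMIs set the groups. Counts were summed per library and group with at least 10 cells, and tested with edgeR 4.0.16 (R 4.3.3; quasi-likelihood, TMM, filterByExpr, library as a block because groups of 1 library share mice, Benjamini-Hochberg over 7038 genes, adjusted p under 0.05). The tests were also run on simulated counts. These had no library effects and the same mean profile in all groups apart from genes changed in members. They could therefore not check the block. The sums of all groups were in 1 fit, which shared 1 estimate of the spread with 7 residual degrees of freedom. p-values rest on 3 libraries and on how the differences between groups varied over them. Shifts common to all groups of a library were taken up by the block. DESeq2 1.42.0 and other settings were alternatives. Scrublet made 0, 0 and 2 automatic doublet calls and had thus not worked, so the highest scores were left out as an alternative. Named genes were, in each direction, the 10 largest called differences with the same sign in every library and at least 50 CPM in the higher group, plus the largest called differences of fixed gene lists. The members and lists were chosen with earlier results of these data known. All 15 Klra and marker genes placed by coordinates had the same identifier in the files and in GENCODE vM21. The sequences are GENCODE coding sequences.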

Additional observations from a re-analysis of the deposited data

How the results depend on the processing

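The groups of a library come from the same mice, so the library was a block. With no replicate block, the paired fit was lost and the genes called fell to 192 against CD8+ T cells, 21 against NK cells, 28 against γδ T cells and 374 against Ly49-zero T cells. Thinning to 1000 UMIs (2917 genes tested) gave 250, 69, 64 and 420 calls in the same order. Members without a Trdc UMI gave 437, 102 and 733 calls against CD8+ T, NK and Ly49-zero T cells, with fewer cells in the sums. With no filter on low counts, 353 genes passed against NK cells and 254 against γδ T cells. Settings added after seeing the data gave 436 (members with a Cd3e UMI, against CD8+ T cells), 60 (the same, against γδ T cells) and 63 calls (members with a segment, against γδ T cells). A γδ gate of 1 Trdc UMI gave 275 calls, and fitting only the γδ T cells and members gave 6. The causes were not tested. Leaving out 1 library gave 482 to 548 calls against CD8+ T cells, 127 to 185 against NK cells, 40 to 215 against γδ T cells and 743 to 1058 against Ly49-zero T cells. The share of members became 1.62% of filtered cells and 2.16% of cells with a Cd3 UMI after thinning, 4.21% of the latter with 1 Ly49 UMI allowed, and 2.23% to 3.05% or 2.89% to 3.58% without 1 library.

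Among 207 named gene results, 3121 values kept direction and side of the threshold, 370 lost the call, 16 gained it and 14 reversed. Reversed were Cxcl10 (-1.91 and -1.86 against CD8+ T cells, -1.24 and -0.37 against γδ T cells, without Trdc-positive members and with stricter exclusion of other lineages), Gzma against CD8+ T cells without library 2 (-0.0644, in a range up to 1.72 over the libraries left out), Klrb1c after thinning (-1.47), Klri2 (-0.39) and Pecam1 (-0.00139) against CD8+ T cells in members with a Cd3e UMI, Tyrobp against NK cells (-0.45 with a segment, -1.22 with Cd3e, -0.56 with Cd3g allowed in NK cells) and Gzmc against γδ T cells (-0.0845). Trdc (-5.93 against CD8+ T cells, -10.11 against NK cells) reversed by construction in members without it. Depth limits library 3 most, where the 12 NK cells held 35501 UMIs.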
